A study of Arabidopsis thaliana with 9 samples.

Results

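Heated seedlings of the sr45a mutant were compared with heated wild-type (WT) seedlings of Arabidopsis thaliana, using 6 of the 9 RNA sequencing libraries of the series: 3 of sr45a and 3 of WT. Membership was taken from the genotype in the labels, and no measured value entered it. All seedlings were 2 weeks old, were grown on ½MS medium in long days and were held at 45 °C for 3 h before RNA was isolated from whole seedlings. WT was heated like the mutant, so every difference is a difference between genotypes after heat, and the response to heat was not measured. The third genotype, the overexpressor SR45a-1a-OE with 3 heated libraries, entered the fit of the spread and is given beside the mutant for a few genes; it is set against the same WT libraries. The labels name neither the sr45a allele nor the number of its lines, and they do not say what separates the replicates, so p-values measure the spread between libraries, which may be technical.

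SR45a is an RNA-binding protein of the serine/arginine-rich type. Proteins of this type bind pre-mRNA and help the spliceosome to recognise splice sites, and SR45a is known for its own induction by heat and by strong light. Loss of such a factor can show in the choice between transcripts of 1 gene, in gene levels, or in both. Gene levels, then transcripts, are described here. In the text, CPM is the gene count scaled to a common library size, a fold change is given as log2 of sr45a over WT with its standard error (SE), "rose by" and "fell by" give its size, and a gene was called changed at a Benjamini-Hochberg adjusted p under 0.05 over all tested genes.

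The gene counts summed to 18036195 to 21638530 in the sr45a libraries and to 21610270 to 21864604 in the WT libraries. SR45a (AT1G07350, chromosome 1, 2257384 to 2260187, minus strand, TAIR10.1) had 1.9, 4.55 and 7.27 CPM in the sr45a libraries, against 433, 401 and 419.8 CPM in the WT libraries. All 3 mutant libraries held only a trace of the WT level, and the groups lay far apart (log2 fold change −6.52, SE 0.34, adjusted p = 3.4e-06). Principal components of log2 CPM were computed over all 9 libraries, SR45a-1a-OE included. The second, with 22.1% of the variance, held all sr45a libraries at 22.04 to 36.5 and all WT libraries at −36.1 to −18.9. On the first, with 36.6%, sr45a replicate 3 stood apart from its group at 4.70, against −25.3 and −22.2 for the other sr45a libraries and −25.3 to −20.9 for WT. The SR45a-1a-OE libraries stood at 48.3, 47.0 and 16.2 on the first. Whole seedlings contain many cell types, and fewer cells of a type cannot be told apart from less RNA per cell. The photosynthesis list summed to 90229 to 99404 CPM in sr45a and 85876 to 100959 CPM in WT, and the root marker list to 1062 to 1227 CPM in sr45a and 1060 to 1294 CPM in WT. Markers of shoot and root were thus present in every library.

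Of 20103 genes tested, 173 rose in sr45a (0.861%) and 153 fell (0.761%), together 326 (1.62%). Among all tested genes the sr45a and WT libraries did not overlap for 24.1%, with 11.3% entirely above and 12.8% entirely below, and 3158 genes had an unadjusted p under 0.05. The groups did not overlap for any of the 326 called genes. Where lack of overlap is stated below for a called gene, it is therefore no further evidence beside the call. The called genes that rose and those that fell differed in size and level. The median log2 fold change was 1.62 among genes that rose and −0.79 among genes that fell, and 121 of the risen genes moved at least 2-fold, as did 58 of the fallen genes. The risen genes were scarce, with a median level of 6.31 CPM in sr45a and 1.78 CPM in WT, and the fallen genes more abundant, at 15.5 CPM in sr45a and 31.3 CPM in WT. Among the 1740 genes at 100 CPM or more, 3 rose and 33 fell. Among the 3385 genes with 11 or more annotated exons, 9 rose and 41 fell, and among the 2856 genes with 1 exon 33 rose and 17 fell. The calls rest on all libraries together: with 1 of the 6 left out, 106 genes (without WT replicate 2) to 215 genes (without sr45a replicate 3) were called, 137 without WT replicate 1, 151 without WT replicate 3, 139 without sr45a replicate 1 and 137 without sr45a replicate 2. Of the 326 genes, 83 kept their call in all 14 alternative fits, 44 that rose and 39 that fell. Here and below, a call counted as kept unless the gene had an adjusted p of 0.05 or more. Genes that an alternative fit left untested, or without an adjusted p, thus counted as kept.

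**Figure D1:**
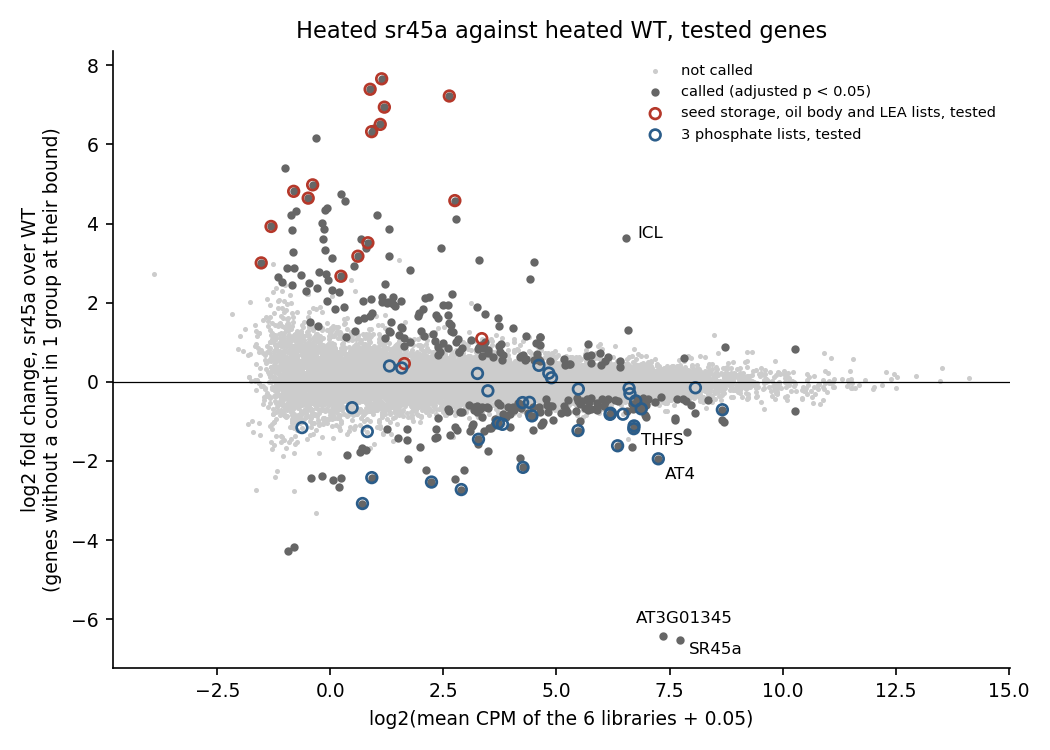
Log2 fold change of sr45a over WT (vertical axis) against the mean level of the 6 libraries (horizontal axis, log2 CPM) for the 20103 tested genes, with those uncounted in 1 group (AT4G05025 among them) drawn at their bound, with called genes in dark grey and the seed and phosphate list genes ringed. Genes called higher spread widely at low levels, SR45a and AT3G01345 stand below −6, and most called genes at high level lie below 0.

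Genes of the phosphate starvation response fell together in sr45a. In Arabidopsis this response is driven by the transcription factor PHR1, which binds a short imperfect palindrome in its targets; the SPX proteins bind inositol pyrophosphates, hold PHR1 when phosphate is ample and are themselves PHR1 targets. Its outputs are phosphate transporters, enzymes that replace phospholipids with lipids free of phosphate, and phosphatases. The 3 lists of this response held 41 genes, of which 36 passed the filter on low counts. None rose, 17 fell and 19 did not pass the test, against 0.761% of all tested genes that fell. Their median log2 fold change was −0.81, beside −0.00048 over all tested genes, and all sr45a libraries lay below all WT libraries for 28 of the 36, beside 12.8% of all tested genes. The summed level of the lists was 1702, 1556 and 1531 CPM in sr45a, against 2433, 2643 and 2790 CPM in WT. In the SR45a-1a-OE libraries, set against the same WT libraries, it was 2298, 2548 and 1954 CPM.

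Among the signalling genes, 4 of 11 fell. SPX3 had 0.324, 0.476 and 0.199 CPM in the sr45a libraries, against 2.04, 3.13 and 3.34 CPM in the WT libraries, and SPX1 had 54.4, 66.4 and 70.9 CPM in the sr45a libraries, against 106, 143 and 187 CPM in the WT libraries. Both genes were lower in every mutant library than in any WT library, SPX3 by 3.08 (SE 0.35, adjusted p = 0.00139) and SPX1 by 1.18 (SE 0.18, adjusted p = 0.0079) on the log2 scale. The non-coding RNAs IPS1 and AT4 sequester miR399, the microRNA that restrains the ubiquitin conjugase PHO2. AT4 (AT5G03545) had 63.2, 73.9 and 51.4 CPM in the sr45a libraries, against 192, 239.7 and 294 CPM in the WT libraries, the largest difference in CPM within the list. IPS1 had 1.8, 1.69 and 0.597 CPM in the sr45a libraries, against 5.58, 6.57 and 11.7 CPM in the WT libraries. Neither overlapped between the groups (log2 fold change −1.95, SE 0.20, adjusted p = 0.000766 for AT4 and log2 fold change −2.53, SE 0.43, adjusted p = 0.0134 for IPS1). The transcripts of PHR1, PHO2 and SPX2 did not pass: PHR1 had 30.5 ± 3.6 CPM in sr45a and 26.2 ± 1.07 CPM in WT (adjusted p = 0.34), PHO2 89.9 ± 10.3 CPM in sr45a and 125.5 ± 14.5 CPM in WT (adjusted p = 0.13), and SPX2 15.6 ± 1.39 CPM in sr45a and 22.4 ± 2.84 CPM in WT (adjusted p = 0.0588; SD, n = 3 libraries per group throughout).

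Of the 12 transport genes, 8 were tested and 5 fell. PHT1;4, a high-affinity transporter of the plasma membrane, had 52.3, 39.2 and 28.9 CPM in the sr45a libraries, against 107, 128 and 134 CPM in the WT libraries, with no overlap (log2 fold change −1.62, SE 0.23, adjusted p = 0.00563). The closely related PHT1;1 and PHT1;2 lie close together on chromosome 5, and reads may have been shared between them. PHT1;1 had 103, 86.4 and 80.3 CPM in the sr45a libraries, against 147, 143 and 145 CPM in the WT libraries (log2 fold change −0.68, SE 0.13, adjusted p = 0.0265), and PHT1;2 0.786, 0.371 and 0.547 CPM in the sr45a libraries, against 2.84, 2.34 and 4.13 CPM in the WT libraries (log2 fold change −2.42, SE 0.35, adjusted p = 0.00542). PHF1, which lets these transporters leave the endoplasmic reticulum, had 18.4, 15.3 and 13 CPM in the sr45a libraries, against 27.6, 28.3 and 28.9 CPM in the WT libraries. It too was lower in every mutant library, by 0.86 (SE 0.13, adjusted p = 0.00847). G3Pp1, annotated as a putative glycerol-3-phosphate transporter, fell by 0.82 (SE 0.17, adjusted p = 0.0339). The exporter PHO1, which loads phosphate into the xylem, stood at 41.9 ± 3.21 CPM in sr45a and 47.5 ± 8.15 CPM in WT (adjusted p = 0.624). The 4 members PHT1;3, PHT1;7, PHT1;8 and PHT1;9 had too few counts for the test.

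Among the lipid and phosphatase genes, 8 of 17 tested fell. MGD2 and MGD3 (named MGDC in the annotation) make the galactolipid that stands in for phospholipids outside the chloroplast. MGD3 had 2.73, 2.117 and 0.946 CPM in the sr45a libraries, against 10.3, 12.9 and 15.3 CPM in the WT libraries, and MGD2 had 5.73, 4.98 and 4.73 CPM in the sr45a libraries, against 11.5, 15.9 and 14.9 CPM in the WT libraries. The gap was wide for MGD3 (log2 fold change −2.72, SE 0.31, adjusted p = 0.00144) and narrower for MGD2 (log2 fold change −1.45, SE 0.17, adjusted p = 0.00148). SQD1 and SQD2 make sulfolipid. SQD2 had 82.3, 69.5 and 47.3 CPM in the sr45a libraries, against 132, 151 and 149 CPM in the WT libraries (log2 fold change −1.11, SE 0.17, adjusted p = 0.00809), and SQD1, the most abundant gene that fell in these lists, 352, 291 and 285 CPM in the sr45a libraries, against 461, 522 and 529.9 CPM in the WT libraries (log2 fold change −0.71, SE 0.14, adjusted p = 0.024). All sr45a libraries lay below all WT libraries for both. PLDP2, a phospholipase D, fell by 1.04 (SE 0.17, adjusted p = 0.0089), and GDPD1 (annotated SRG3), a glycerophosphodiester phosphodiesterase, by 1.23 (SE 0.20, adjusted p = 0.0116).

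The phosphatase PS2 (AT1G73010), a pyrophosphatase of the starved plant, had 8.42, 8.26 and 4.23 CPM in the sr45a libraries, against 27.6, 33.5 and 32.6 CPM in the WT libraries. Its highest mutant value was far below its lowest WT value (log2 fold change −2.16, SE 0.26, adjusted p = 0.00201). The phosphoethanolamine and phosphocholine phosphatase PECP1 (annotated PEPC1) is of the same family; it was added to the list after its values were seen. It had 2.64, 2.17 and 1.39 CPM in the sr45a libraries, against 7.4, 10.4 and 16.5 CPM in the WT libraries (log2 fold change −2.46, SE 0.35, adjusted p = 0.00505). The purple acid phosphatase PAP12 fell by 0.79 (SE 0.15, adjusted p = 0.0234). Members that did not pass were the purple acid phosphatases PAP17 at −0.82 (adjusted p = 0.0788) and PAP10 at −0.52 (adjusted p = 0.0854), and the phospholipase C NPC4 at −1.26 (adjusted p = 0.147). The galactolipid synthases MGD1 and DGD1, which build chloroplast membranes in fed plants, were at −0.16 (adjusted p = 0.422) and −0.30 (adjusted p = 0.275). Outside the lists PPCK1, the kinase that activates phosphoenolpyruvate carboxylase, had 18.22, 15.6 and 14 CPM in the sr45a libraries, against 31.9, 33.3 and 37.6 CPM in the WT libraries (log2 fold change −1.10, SE 0.13, adjusted p = 0.00148). The transmembrane protein gene AT5G20790 fell by 1.75 (SE 0.26, adjusted p = 0.0079).

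**Figure D2:**
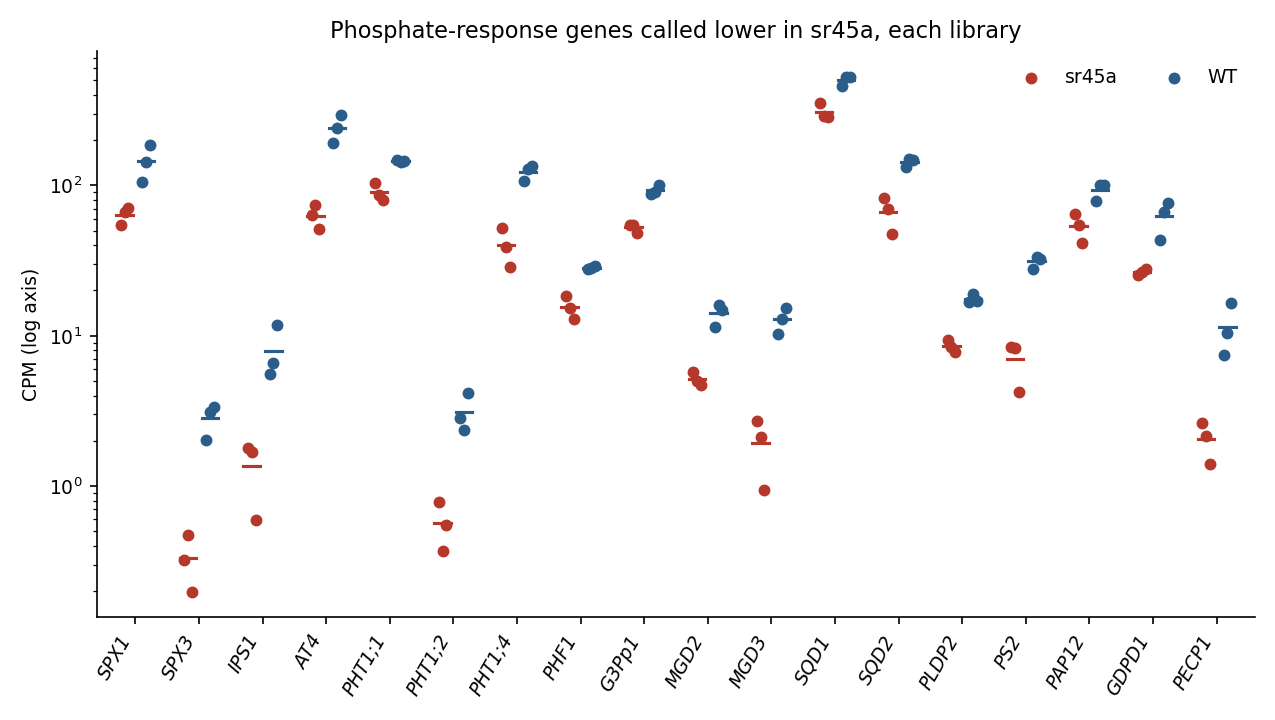
Level in CPM (vertical log axis) of phosphate starvation genes in each library, sr45a to the left of WT for each gene; points are libraries and lines are group means. The sr45a points lie below the WT points for each called gene, with AT4 at 51.4 to 73.9 CPM in sr45a and 192 to 294 CPM in WT.

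Without sr45a replicate 3, the library that stood apart, 4 signalling, 3 transport and 6 lipid and phosphatase genes fell. SPX1, SPX3, AT4, PHT1;2, PHT1;4, PHF1, MGD2, MGD3, SQD2 and PS2 kept their call in all 14 alternative fits. PHT1;1, SQD1, PAP12 and G3Pp1 kept theirs in 9, 8, 9 and 5 of the 14. With 1 library left out, the number of genes that fell was 3 or 4 for signalling, 3 or 4 for transport (3 without WT replicate 1, 2 or 3 and without sr45a replicate 2 or 3) and 4 to 7 for lipids and phosphatases (4 without WT replicate 2, 5 without sr45a replicate 2).

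The promoters of the phosphate genes were searched because PHR1 binds GNATATNC. The windows run from 250 bases before to 50 after the annotated gene start, on TAIR10.1, and both strands were read. Of 26967 windows over all genes, 6.29% held GNATATNC, as did 17 of 42 phosphate genes, PECP1 included (40.5%). Among them were 11 of the 18 that fell (61.1%) and 5 of the 19 tested that did not pass (26.3%). Of all 153 genes that fell 30 held it (19.6%), and outside the phosphate lists 19 of 135 (14.1%); of the 172 genes with a window that rose, 6 held it (3.49%). A match describes these letters and does not show binding. The fallen genes without a match were IPS1, PHT1;1, PHF1, G3Pp1, MGD3, SQD2 and PECP1. The windows of 5 fallen genes with a match are given, so that signalling, transport, lipids and phosphatases are each shown; capitals mark GNATATNC on either strand. The matches start at −213 and −90 from the gene start in SPX3 (chr2:18606160-18606459, plus strand), at −26 in AT4 (chr5:894332-894631, plus strand), at −7 in PHT1;4 (chr2:16256907-16257206, plus strand), at −14 and 37 in MGD2 (chr5:6896213-6896512, plus strand) and at −217 in PS2 (chr1:27466299-27466598, minus strand).
SPX3: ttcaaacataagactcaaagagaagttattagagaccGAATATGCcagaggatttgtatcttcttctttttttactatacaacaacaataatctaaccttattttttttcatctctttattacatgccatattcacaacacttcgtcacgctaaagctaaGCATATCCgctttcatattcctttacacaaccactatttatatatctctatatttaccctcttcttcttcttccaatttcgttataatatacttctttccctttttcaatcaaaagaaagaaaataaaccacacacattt
AT4: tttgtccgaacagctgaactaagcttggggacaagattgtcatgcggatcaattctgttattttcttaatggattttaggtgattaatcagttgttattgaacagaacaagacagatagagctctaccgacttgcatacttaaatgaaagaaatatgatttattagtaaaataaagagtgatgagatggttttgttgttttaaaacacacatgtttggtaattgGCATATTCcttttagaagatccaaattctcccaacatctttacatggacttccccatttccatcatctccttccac
PHT1;4: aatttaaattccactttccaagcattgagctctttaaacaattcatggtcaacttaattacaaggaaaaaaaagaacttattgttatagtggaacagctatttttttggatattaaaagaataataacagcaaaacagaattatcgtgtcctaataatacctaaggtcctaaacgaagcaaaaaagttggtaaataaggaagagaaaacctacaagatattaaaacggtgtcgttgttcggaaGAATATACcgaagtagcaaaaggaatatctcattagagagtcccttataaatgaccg
MGD2: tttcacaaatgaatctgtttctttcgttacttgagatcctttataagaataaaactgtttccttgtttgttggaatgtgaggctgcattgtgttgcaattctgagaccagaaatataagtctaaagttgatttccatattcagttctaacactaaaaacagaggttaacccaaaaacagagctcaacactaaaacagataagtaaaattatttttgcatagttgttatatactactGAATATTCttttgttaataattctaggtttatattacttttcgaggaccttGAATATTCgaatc
PS2: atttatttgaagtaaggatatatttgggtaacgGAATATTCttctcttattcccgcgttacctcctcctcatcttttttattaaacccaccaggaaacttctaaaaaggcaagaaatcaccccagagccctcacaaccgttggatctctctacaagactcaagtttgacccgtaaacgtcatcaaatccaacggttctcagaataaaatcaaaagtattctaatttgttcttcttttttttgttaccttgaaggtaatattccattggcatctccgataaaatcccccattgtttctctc

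Transcripts of seed reserves were among the largest rises. Cruciferins and albumins are the storage proteins of the Arabidopsis seed; oleosins coat its oil bodies, and late embryogenesis abundant (LEA) proteins accumulate as it dries. Their genes are switched on late in embryo development by the B3 factors ABI3, FUS3 and LEC2, which bind the RY element, and are normally silent in seedlings. All 9 storage protein genes on the list rose, against 0.861% of all tested genes, with a median fitted log2 fold change of 7.22, or 6.51 with genes uncounted in WT at their lower bound. All 9 passed the filter through the mutant libraries, so the filter in part fixed the share that rose. Of 12 oil body and late embryogenesis genes, 8 were tested and 6 rose. EM1, OLEO1 and M17, with 0, 2 and 3 counts over the WT group, could not have passed the filter on WT counts. The same limit therefore holds for this share. In the wider LEA family 11 of 60 tested genes rose and none fell, with a median of 0.21. The storage protein genes summed to 57.7, 52.4 and 29.2 CPM in sr45a, against 0.620, 0.873 and 0.697 CPM in WT. In the SR45a-1a-OE libraries they summed to 1.29, 9.11 and 1.25 CPM.

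The cruciferin CRA1 had 15.68, 11.7 and 11.1 CPM in the sr45a libraries, against 0.443, 0.644 and 0.511 CPM in the WT libraries, with every mutant library many times above every WT library (log2 fold change 4.58, SE 0.44, adjusted p = 0.000439). Cruciferin CRU3 had 17.9, 10.11 and 8.56 CPM in the sr45a libraries, against 0.0886, 0.0919 and 0.0464 CPM in the WT libraries, again without overlap (adjusted p = 0.00797). One SR45a-1a-OE library also carried CRU3: the 3 stood at 0, 2.64 and 0.0464 CPM. The albumin SESA1 had 251 counts in the sr45a libraries together and 0 in WT, at least 90.9-fold higher against a floor of 3 counts over the WT group (adjusted p = 0.00224). For its neighbour SESA2 the figures were 221 counts in sr45a and 0 in WT, at least 80.04-fold higher (adjusted p = 0.00578). CRU2 had 42 counts in sr45a and 0 in WT, at least 15.2-fold higher (adjusted p = 0.0231). SESA5 had 256 counts in sr45a and 1 in WT, a ratio of 278 with a 95% counting interval of 49.5 to 11028. The vicilin-like PAP85 had 274 counts in sr45a and 2 in WT, a ratio of 149 (40.8 to 1235), and SESA3 212 counts in sr45a and 1 in WT, a ratio of 230.3 (40.9 to 9140). SESA1 to SESA4 form a tandem cluster of similar genes on chromosome 4, so reads may have been divided among them.

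Among oil body and LEA genes, EM1 had 87 counts in sr45a and 0 in WT, at least 31.5-fold higher (adjusted p = 0.00176). Oleosin OLEO1 had 62 counts in sr45a and 2 in WT, a ratio of 33.7 (8.94 to 284; adjusted p = 0.00847), and M17 78 counts in sr45a and 3 in WT, a ratio of 28.2 (9.32 to 140; adjusted p = 0.00809). All sr45a libraries exceeded all WT libraries for each of them. The seed peroxiredoxin PER1 rose by 3.17 (SE 0.49, adjusted p = 0.00838), oleosin OLEO2 by 3.51 (SE 0.73, adjusted p = 0.0342) and ECP63 by 2.67 (SE 0.51, adjusted p = 0.0241). The lipid droplet protein gene AT2G47780 (LDAP2), counted with this group only after its values were seen, had 6.61, 7.52 and 3.33 CPM in the sr45a libraries, against 0.975, 0.781 and 0.697 CPM in the WT libraries (log2 fold change 2.82, SE 0.33, adjusted p = 0.00161). In the LEA family AT2G42560 rose by 4.58 (SE 0.59, adjusted p = 0.0028) and AT3G15670 by 2.48 (SE 0.32, adjusted p = 0.0028). TIP3;1, an aquaporin of the seed storage vacuole, had 2.5, 1.43 and 0.796 CPM in the sr45a libraries, against 0.0886, 0.0919 and 0.279 CPM in the WT libraries (log2 fold change 3.33, SE 0.62, adjusted p = 0.0219).

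No regulator of seed maturation passed the test. Of 10 on the list 5 were tested, and none rose or fell. At an unadjusted p under 0.05, 1 was upward and 0 downward, and the median was −0.018. All sr45a libraries lay above all WT libraries for 1 of the 5, ABI3, beside 11.3% of all tested genes. ABI3 had 0.647, 0.847 and 0.846 CPM in sr45a and 0.177, 0.414 and 0.372 CPM in WT (adjusted p = 0.199), and ABI5 1.8 ± 0.319 CPM in sr45a and 1.72 ± 0.225 CPM in WT (adjusted p = 0.931). FUS3, LEC1, LEC2, ABI4 and HSFA9 were at or near 0 in all 6 libraries and were not tested. The storage genes remained at low levels in the mutant, none above 17.9 CPM in any library. CRA1, PAP85, SESA1, EM1 and AT2G47780 kept their call in all 14 alternative fits. With 1 library left out, 5 (without WT replicate 2) to 8 (without sr45a replicate 3) of the 9 storage genes were called, and 6 in each other case. For oil body and late embryogenesis genes it was 3 to 5 (3 without WT replicate 2, 4 without WT replicate 1 or sr45a replicate 1).

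**Figure D3:**
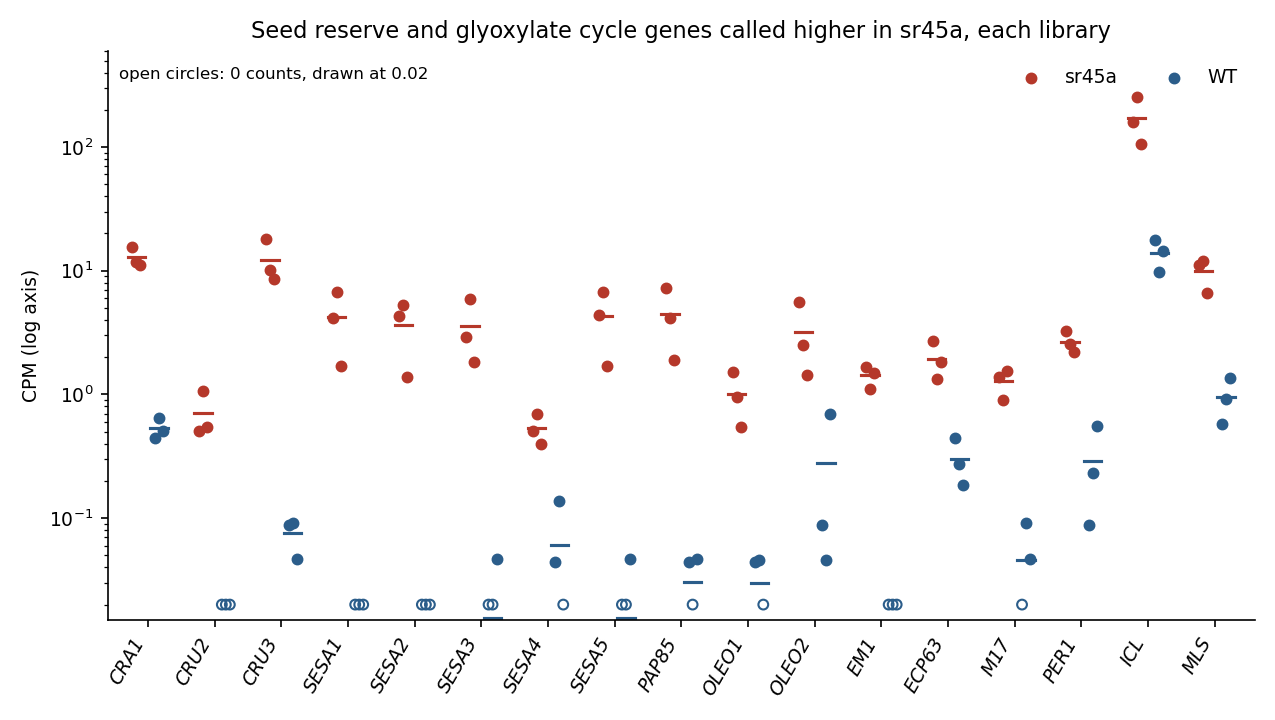
Level in CPM (vertical log axis) of seed reserve and glyoxylate cycle genes in each library, sr45a to the left of WT for each gene; points are libraries, lines are group means and open circles are libraries without a count. The sr45a points lie above the WT points for each gene shown as called, with CRA1 at 11.1 to 15.68 CPM in sr45a and 0.443 to 0.644 CPM in WT.

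The promoters of the seed genes were searched for the RY element CATGCA, on both strands and in windows of the same length. Of all windows 9.73% held it, as did 16 of 21 genes of the seed lists (76.2%) and 12 of the 15 that rose (80%). Of the members not called, OLEO3, OLEO4, HSD1 and ATS1 also held it, and GEA6 and LEA7 did not. The motif thus went with membership of the lists and not only with a rise. Among all genes that rose the share was 20.9% (36 of 172, these 12 included), and among all that fell 13.1% (20 of 153). ACGTG, the core of abscisic acid response elements, was in 27% of all windows, 45.9% of the genes that rose and 34.6% of those that fell. The windows of CRA1 (chr5:17758287-17758586, minus strand), SESA1 (chr4:13607079-13607378, plus strand) and OLEO1 (chr4:12900180-12900479, plus strand) stand for the 3 kinds of reserve protein, with CATGCA on either strand in capitals. Matches start at −181 and −164 in CRA1, at −79 and −54 in SESA1, and at −125, −114 and −80 in OLEO1.
CRA1: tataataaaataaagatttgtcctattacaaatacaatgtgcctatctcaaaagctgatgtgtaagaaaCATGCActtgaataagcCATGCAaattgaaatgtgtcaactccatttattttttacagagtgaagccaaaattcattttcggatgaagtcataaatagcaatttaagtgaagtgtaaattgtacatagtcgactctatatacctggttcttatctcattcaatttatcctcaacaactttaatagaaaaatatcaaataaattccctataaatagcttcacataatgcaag
SESA1: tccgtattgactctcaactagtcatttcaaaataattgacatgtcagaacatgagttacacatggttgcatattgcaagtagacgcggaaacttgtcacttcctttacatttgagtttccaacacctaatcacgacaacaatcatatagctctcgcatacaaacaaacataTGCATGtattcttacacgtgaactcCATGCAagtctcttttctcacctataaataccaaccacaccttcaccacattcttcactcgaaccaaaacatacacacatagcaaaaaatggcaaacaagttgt
OLEO1: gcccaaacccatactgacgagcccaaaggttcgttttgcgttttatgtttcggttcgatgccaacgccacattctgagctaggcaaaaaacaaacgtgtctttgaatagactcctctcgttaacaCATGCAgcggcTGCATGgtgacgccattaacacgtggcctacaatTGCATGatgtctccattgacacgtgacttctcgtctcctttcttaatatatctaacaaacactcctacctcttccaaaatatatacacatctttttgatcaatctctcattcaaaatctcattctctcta

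Both enzymes that are particular to the glyoxylate cycle rose. In germinating seeds this cycle turns the acetyl-CoA from stored oil into precursors of sugar, and isocitrate lyase (ICL) and malate synthase (MLS) are needed for it alone. ICL had 159, 254 and 107 CPM in the sr45a libraries, against 17.81, 9.7 and 14.5 CPM in the WT libraries. Every mutant library was many times above every WT library (log2 fold change 3.63, SE 0.38, adjusted p = 0.000963), and ICL had the highest level in sr45a among the largest rises named here. MLS had 11.2, 11.9 and 6.62 CPM in the sr45a libraries, against 0.576, 0.919 and 1.35 CPM in the WT libraries (log2 fold change 3.38, SE 0.43, adjusted p = 0.0028). The SR45a-1a-OE libraries held ICL at 12.5, 26.6 and 31.9 CPM. The other 20 genes of the list, which cover fatty acid beta-oxidation and its partners, did not pass. PCK1, which leads from the cycle to sugar, had 117 ± 10.08 CPM in sr45a and 119 ± 14.4 CPM in WT (adjusted p = 0.942), and the lipase SDP1 46.7 ± 4.95 CPM in sr45a and 44.3 ± 3.2 CPM in WT (adjusted p = 0.786). The median over the 22 genes was 0.10. ICL and MLS kept their call in all 14 alternative fits.

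Iron genes moved in both directions. Plants short of iron raise the bHLH factors of group Ib and PYE and the phloem transporter OPT3; ferritins, which store iron, fall. Of 21 genes on the list 4 rose and 3 fell, against 1.62% of all tested genes called, and the median was 0.66. bHLH39 had 4.02, 4.92 and 4.08 CPM in the sr45a libraries, against 0.576, 0.368 and 0.464 CPM in the WT libraries, with the groups far apart (log2 fold change 3.19, SE 0.26, adjusted p = 0.000122). PYE had 8.37, 10.2 and 8.86 CPM in the sr45a libraries, against 4.83, 4.41 and 4.27 CPM in the WT libraries (log2 fold change 1.02, SE 0.16, adjusted p = 0.00988), and OPT3 71.5, 59 and 74.6 CPM in the sr45a libraries, against 40.7, 35.9 and 29.6 CPM in the WT libraries (log2 fold change 0.95, SE 0.17, adjusted p = 0.0148). FER1, the main leaf ferritin, had 88, 81.4 and 95 CPM in the sr45a libraries, against 126, 147 and 217 CPM in the WT libraries (log2 fold change −0.89, SE 0.17, adjusted p = 0.0227), and FER3 fell by 0.64 (SE 0.13, adjusted p = 0.0365). The seed ferritin FER2 went the other way, at 13.6, 13.9 and 15.38 CPM in sr45a and 8.2, 8.6 and 7.62 CPM in WT (log2 fold change 0.81, SE 0.16, adjusted p = 0.028). NAS3, a nicotianamine synthase, fell by 2.38 (SE 0.33, adjusted p = 0.00483); it lies within 1 Mb of SR45a. The SR45a-1a-OE libraries held bHLH39 at 0.646, 0.694 and 0.928 CPM and FER1 at 209, 205 and 228 CPM. bHLH39 and NAS3 kept their call in all 14 alternatives. With 1 library left out, 2 (without WT replicate 2) to 7 (without WT replicate 1) of the list were called, 3 without WT replicate 3, sr45a replicate 1 or sr45a replicate 2.

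Some genes that mark sulfur shortage fell. SDI1 restrains glucosinolate synthesis when sulfate is short, BGLU28 is a beta-glucosidase thought to recover sulfur from glucosinolates, and GGCT2;1 breaks down glutathione. Of 11 genes 4 fell, none rose and 7 did not pass, against 0.761% of all tested genes that fell, and the median was −0.58. SDI1 had 9.8, 6.83 and 6.02 CPM in the sr45a libraries, against 24.2, 31.2 and 30.5 CPM in the WT libraries, with no overlap (log2 fold change −1.92, SE 0.17, adjusted p = 0.000245). LSU1 fell by 1.24 (SE 0.22, adjusted p = 0.016), BGLU28 by 1.35 (SE 0.22, adjusted p = 0.00975) and GGCT2;1 (AT5G26220) by 1.06 (SE 0.19, adjusted p = 0.0182). The SR45a-1a-OE libraries held SDI1 at 9.5, 8.51 and 8.82 CPM, set against the same WT libraries. SDI1 alone of the 4 kept its call in all 14 alternatives, and with 1 library left out 1 (without WT replicate 2) to 5 (without WT replicate 1) of the list were called, 2 without WT replicate 3 or sr45a replicate 2.

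Glutathione transferases conjugate glutathione to reactive or foreign compounds. Of 28 tested 5 rose and none fell, against 0.861% of all tested genes that rose, and the median was 0.24. GSTF6 had 15.1, 21.2 and 15.38 CPM in the sr45a libraries, against 1.82, 2.57 and 1.72 CPM in the WT libraries, with a wide gap (log2 fold change 3.08, SE 0.23, adjusted p = 8.27e-05). Its neighbour and close copy GSTF7, with which it may share reads, rose by 1.71 (SE 0.29, adjusted p = 0.0126). GSTU19, the most abundant gene that rose in sr45a, had 1472, 1429.5 and 1888 CPM in the sr45a libraries, against 801, 946 and 949 CPM in the WT libraries (log2 fold change 0.83, SE 0.18, adjusted p = 0.0385). GSTU24 rose by 2.03 (SE 0.36, adjusted p = 0.0154) and GSTU25 by 2.28 (SE 0.45, adjusted p = 0.0285). Only GSTF6 kept its call in all 14 alternatives, and with 1 library left out 1 (without WT replicate 2 or sr45a replicate 2) to 4 (without WT replicate 3) were called, 2 without WT replicate 1 or sr45a replicate 1 and 3 without sr45a replicate 3. Among cytochromes P450, which often act before such conjugation, 6 of 163 rose and 2 fell, where 0.861% of all tested genes rose and 0.761% fell. CYP81D11 rose by 1.94 (SE 0.32, adjusted p = 0.0107), CYP81D8 by 1.74 (SE 0.36, adjusted p = 0.0321) and CYP96A11 by 1.92 (SE 0.30, adjusted p = 0.00838). CYP81F4, an enzyme of indole glucosinolate synthesis, fell by 1.15 (SE 0.21, adjusted p = 0.0184), and CYP708A2, an enzyme of thalianol synthesis in roots, by 1.02 (SE 0.20, adjusted p = 0.0271).

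No list of the heat response had a called member. In the wider family of DnaJ proteins, which work with HSP70, 2 of 114 tested genes fell and 0 rose, beside 0.761% of all tested genes that fell. Heat shock factors bind heat shock elements and induce chaperones; small heat shock proteins hold unfolding proteins, and HSP101 and the HSP70 and HSP90 families refold them. Among 20 tested heat shock factors and heat regulators none passed, with 1 at an unadjusted p under 0.05 upward and 2 downward and a median of 0.08. HSFA2 had 70.2, 81.4 and 124.6 CPM in the sr45a libraries, against 77.1, 76.1 and 78.4 CPM in the WT libraries, overlapping between the groups (adjusted p = 0.632). HSFA7B stood at 1.16 on the log2 scale (adjusted p = 0.165). Of 18 small heat shock protein genes, 13 of them added after their values were seen, none passed; 14 were positive, 9 had all sr45a libraries above all WT libraries (11.3% of all tested genes did) and 6 had an unadjusted p under 0.05, with a median of 0.21. HSP18.2 had 17505, 17446 and 20385 CPM in the sr45a libraries, against 14709, 18488 and 18231 CPM in the WT libraries, with overlap. Among 31 large chaperones, 2 of them added likewise, none passed, the median was −0.0076, and 2 were unadjusted upward and 3 downward. HSP101 had 391 ± 158 CPM in sr45a and 348 ± 26.3 CPM in WT (adjusted p = 0.844) and HSP90.1 1479 ± 309 CPM in sr45a and 1567 ± 181 CPM in WT (adjusted p = 0.909). The motif GAANNTTC, the core of a heat shock element, was in 11.5% of all windows, 5.23% of those of genes that rose and 14.4% of those of genes that fell. The letters GAATATTC, found in MGD2 and PS2, match both GAANNTTC and GNATATNC, so the 2 searches overlap. Among phosphate genes that fell, 5 of 18 held GAANNTTC (27.8%), and among fallen genes outside the phosphate lists 17 of 135 did (12.6%).

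In the unfolded protein response of the endoplasmic reticulum 1 of 25 genes rose, beside 0.861% of all tested genes. NAC103, a transcription factor of that response, had 7.08, 8.79 and 7.02 CPM in the sr45a libraries, against 1.68, 2.67 and 2.69 CPM in the WT libraries, without overlap (log2 fold change 1.70, SE 0.20, adjusted p = 0.00172), and it kept its call in all 14 alternatives. The remaining 24, among them the chaperones of the endoplasmic reticulum, did not pass, and the median over the list was −0.17. Lists for photosynthesis (35 tested), antioxidant enzymes (18), salicylic acid (10), jasmonate (15), nitrogen (13), glucosinolates (20), flavonoids (12), senescence (11), the clock (21), cell wall growth (27) and auxin (19) had no called member. The median over 298 genes of cytosolic ribosomal proteins was 0.20, with none called, 277 positive and 50 at an unadjusted p under 0.05, all of these upward. Among all 20103 tested genes 10036 were positive and 3158 had an unadjusted p under 0.05 in either direction. The summed level of the family overlapped between the groups, at 43528, 45458 and 35531 CPM in sr45a and 32025, 37091 and 40210 CPM in WT.

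Few genes of the splicing machinery were called. None of 19 other SR protein genes passed, with a median of −0.07 and 1 at an unadjusted p under 0.05 in each direction. SR30 had 492 ± 42.9 CPM in sr45a and 462 ± 8.29 CPM in WT (adjusted p = 0.737), and SR34 173 ± 24.9 CPM in sr45a and 187 ± 6.55 CPM in WT (adjusted p = 0.674). Of 22 other splicing factors 1 fell, beside 0.761% of all tested genes: the glycine-rich RNA-binding protein GRP8 (annotated CCR1), part of a loop with the clock, had 195, 215 and 188 CPM in the sr45a libraries, against 280.1, 279 and 341 CPM in the WT libraries (log2 fold change −0.59, SE 0.11, adjusted p = 0.02). The core spliceosome protein gene smB, named as one of the abundant genes that rose, had 97.3, 93.5 and 97.7 CPM in the sr45a libraries, against 72.7, 72.8 and 75.8 CPM in the WT libraries (log2 fold change 0.38, SE 0.08, adjusted p = 0.0423), a call kept in 6 of the 14 alternatives and in none with 1 of the 6 libraries left out.

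**Figure D4:**
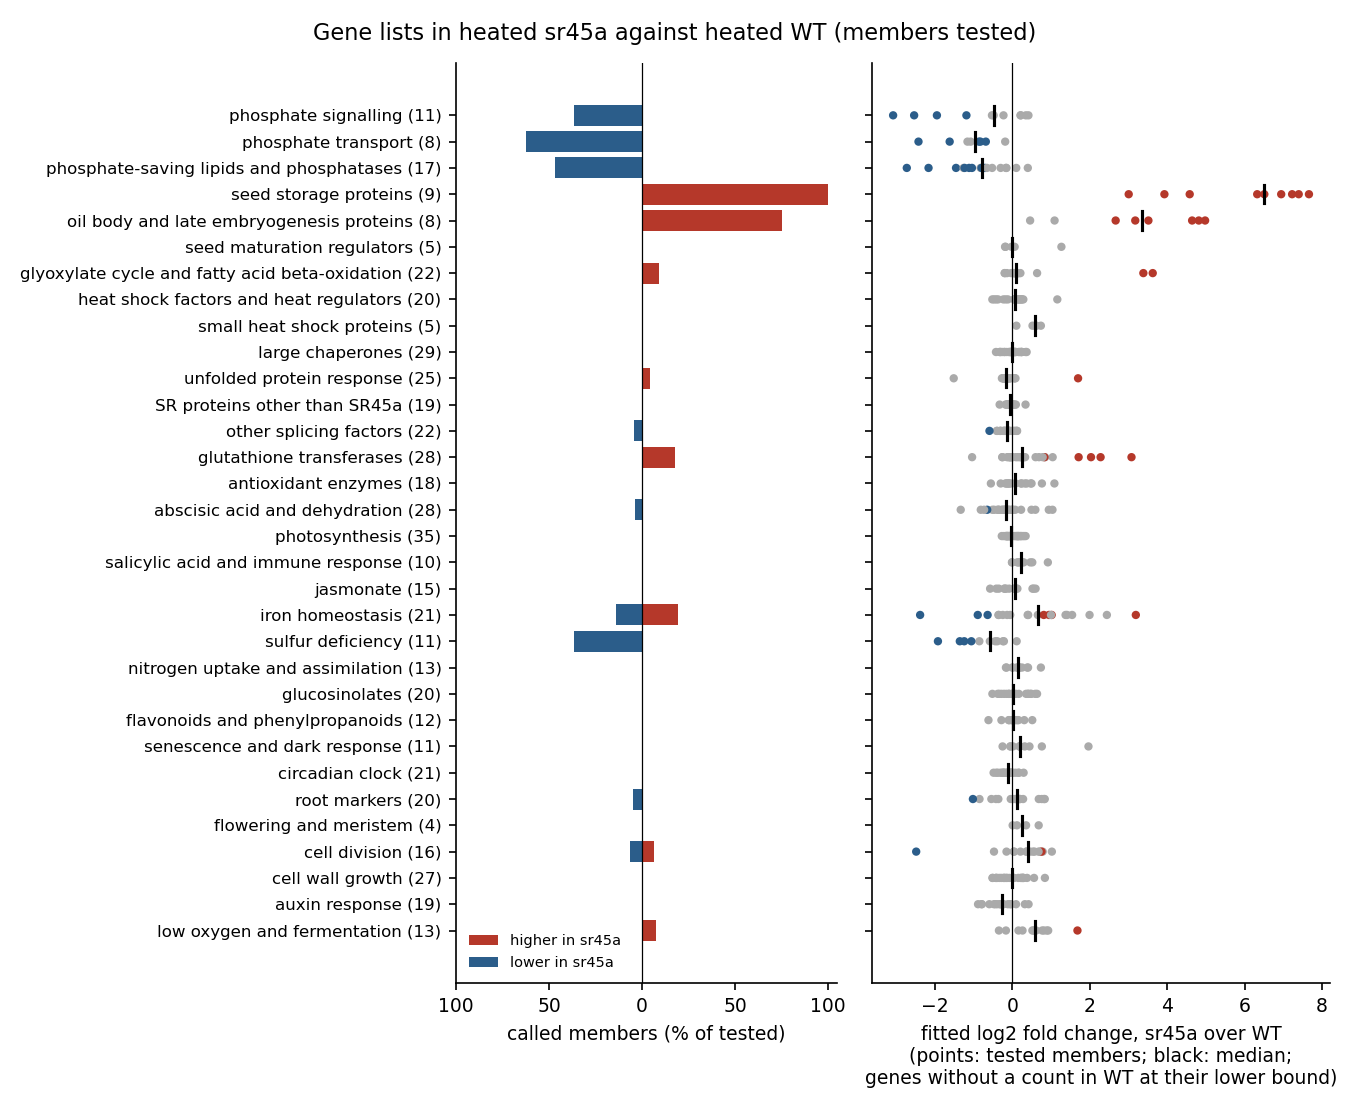
Called members as a percentage of those tested (left) and log2 fold changes of tested members (right) for the gene lists in sr45a against WT; each point is a gene the black mark is the list median, and genes added to a list later are left out. The seed storage list lies entirely to the right with a median of 6.51 with bounds, the phosphate lists lie mostly to the left, and the SR protein list is centred at −0.07.

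Among genes with a count in both groups the largest fall besides SR45a was AT3G01345, a gene annotated only as an expressed protein. It had 3.38, 2.38 and 5.47 CPM in the sr45a libraries, against 321, 337 and 317 CPM in the WT libraries, so it was nearly lost from the mutant (log2 fold change −6.43, SE 0.24, adjusted p = 1.14e-07). It was also near 0 in SR45a-1a-OE, at 0.597, 0.833 and 1.02 CPM. THFS, the formyltetrahydrofolate synthetase of one-carbon metabolism, had 51.2, 44.1 and 53.6 CPM in the sr45a libraries, against 157, 151 and 157 CPM in the WT libraries (log2 fold change −1.64, SE 0.10, adjusted p = 1.96e-05). UBC20, a ubiquitin conjugase, had 9.85, 9.58 and 7.96 CPM in the sr45a libraries, against 2.92, 3.63 and 3.62 CPM in the WT libraries (log2 fold change 1.43, SE 0.23, adjusted p = 0.0089). The gene models of THFS (chromosome 1, 18701882 to 18704938, plus strand) and UBC20 (18704805 to 18706657, minus strand) overlap at their ends, and whether strand was used in counting was not given, so reads from one may have been counted for the other. HEI10, which places meiotic crossovers, had 4.95, 4.55 and 4.78 CPM in the sr45a libraries, against 14.4, 13.7 and 14.5 CPM in the WT libraries (log2 fold change −1.58, SE 0.12, adjusted p = 8.27e-05), and 5.72, 5.83 and 6.22 CPM in SR45a-1a-OE.

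Further large changes concerned genes of varied roles. The non-coding RNA gene AT3G05945 had 13.6, 14.9 and 9.9 CPM in the sr45a libraries, against 0.532, 0.781 and 0.882 CPM in the WT libraries (log2 fold change 4.12, SE 0.34, adjusted p = 0.000122). It stood at 13, 7.08 and 15.73 CPM in SR45a-1a-OE, so both genotypes were above WT. AT4G05025, another non-coding RNA gene, had 0 counts in sr45a and 63 in WT, at least 19.3-fold lower in sr45a against a floor of 3 counts over the group. EARLI1, a lipid-transfer-like protein of the cell wall, had 37.8, 48.3 and 22.7 CPM in the sr45a libraries, against 5.58, 6.48 and 5.94 CPM in the WT libraries (log2 fold change 2.59, SE 0.28, adjusted p = 0.000986). AT5G36790, a haloacid dehalogenase-like gene with near-identical neighbours that may share its reads, rose by 3.02 (SE 0.48, adjusted p = 0.0089). AT2G34210, annotated as transcription elongation factor Spt5, fell by 2.22 (SE 0.30, adjusted p = 0.0037), and MLO7, a membrane protein, by 1.95 (SE 0.32, adjusted p = 0.0108).

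Among abundant genes, the extensins of the cell wall parted. EXT4 had 581, 545 and 534 CPM in the sr45a libraries, against 299, 293 and 306 CPM in the WT libraries (log2 fold change 0.89, SE 0.10, adjusted p = 0.00148), and EXT3 1009.7, 827 and 939.5 CPM in the sr45a libraries, against 1824, 1481 and 1336 CPM in the WT libraries (log2 fold change −0.74, SE 0.15, adjusted p = 0.0347). EXT4 rose in every mutant library and kept its call in all 14 alternatives, whereas EXT3 fell and kept it in 5. The glycine-rich protein GRP3S had 147, 146 and 117 CPM in the sr45a libraries, against 49.1, 54.7 and 62.5 CPM in the WT libraries (log2 fold change 1.3, SE 0.13, adjusted p = 0.000818). The major latex proteins MLP328 and MLP34 fell, MLP328 by 1.28 (SE 0.14, adjusted p = 0.00131) and MLP34 by 0.96 (SE 0.15, adjusted p = 0.00847). EBP (RAP2.3), an ethylene response factor, had 288, 295 and 252 CPM in the sr45a libraries, against 544, 568 and 574 CPM in the WT libraries (log2 fold change −1.01, SE 0.17, adjusted p = 0.0109), and SEX1, the glucan water dikinase that opens starch to breakdown, 216, 183 and 192 CPM in the sr45a libraries, against 385, 323 and 309.9 CPM in the WT libraries (log2 fold change −0.78, SE 0.13, adjusted p = 0.0126). For both the groups stood apart.

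A mutation is inherited with the DNA around it, so genes near SR45a were counted. Within 1 Mb of its start 471 other genes were tested, 3 rose and 9 fell (2.55%, beside 1.54% of all genes on chromosome 1 and 1.44% to 1.93% on the others). Those that rose were MEE4, ADS4 and PCNA1. Those that fell were NAS3, AT1G08310, VPS41, SYP111, GLR3.4, TGA9, PPCK1, PFA-DSP1 and AT1G06640. AT1G08310, an alpha/beta hydrolase, had 2.5, 2.86 and 2.79 CPM in the sr45a libraries, against 12.6, 10.5 and 14.8 CPM in the WT libraries (log2 fold change −2.22, SE 0.17, adjusted p = 8.27e-05), and SYP111 (KNOLLE), the syntaxin of the cell plate, 0.185, 0.212 and 0.498 CPM in the sr45a libraries, against 1.59, 1.65 and 1.81 CPM in the WT libraries (log2 fold change −2.48, SE 0.38, adjusted p = 0.00797). Neither overlapped between the groups. Differences linked to the locus and differences caused by loss of SR45a cannot be told apart for these genes.

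Transcripts were compared in the deposited transcript tables, whose estimated counts were fitted like the gene counts. Of 35975 transcripts tested, 12 rose (0.0334%) and 8 fell (0.0222%), together 20 (0.0556%), with 2643 at an unadjusted p under 0.05. Of these 20, 9 belong to called genes, among them SR45a, AT3G01345, THFS, GSTF6, bHLH39 and SDI1. For the other 11 the gene was not called or has no row in the gene test. The tables also hold 21725 assembled transcripts without a gene identifier, with 15.3% to 17.9% of all estimates, and estimates placed there are missing from the annotated transcripts of a gene. For FLA17 the annotated part differed between the groups: its single annotated transcript AT5G06390.1 stood at 4.88, 4.49 and 3.46 FPKM in sr45a, against 34.5, 34.2 and 32.1 FPKM in WT. The gene did not pass the test (−0.13, adjusted p = 0.663), and its annotated transcript accounted for 13.9% of the gene count in sr45a and 101% in WT, after scaling by the median ratio of estimate to count. The sum over a gene's annotated transcripts, as a share of its gene count, is therefore given beside each result below. Transcript AT1G28210.2 of ATJ1, a DnaJ heat shock gene, rose by 4.85 (SE 0.42, adjusted p = 0.0165), with means of 1.79 FPKM in sr45a and 0.0592 FPKM in WT. The ATJ1 gene did not pass the test (−0.28, adjusted p = 0.309), and its sums were 61.8% in sr45a and 49.0% in WT.

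Usage, the share of each transcript in the summed estimate of its gene, was tested in 7893 genes with at least 2 tested transcripts. It changed in 23 (0.291%), with 508 at an unadjusted p under 0.05. None of the 23 was called at gene level, and in 20 the share of a transcript differed by 10 percentage points or more. Usage was called in none of the 14 SR protein genes, 13 other splicing factors and 6 heat shock factors that could be tested. In 11 of the 23 the annotated transcripts summed to 80% to 125% of the gene count in both groups.

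The clearest case with a complete sum was AT4G31880, annotated as a transcriptional regulator (usage adjusted p = 4.19e-07). Its transcript AT4G31880.2 took 0% in all sr45a libraries, against 49.1%, 41.5% and 41.5% in the WT libraries. The transcript was thus not estimated at all in the mutant, while AT4G31880.1 took the whole. In SR45a-1a-OE it took 48.1%, 42.1% and 30.7%. The annotated transcripts summed to 100% of the gene count in sr45a and 92.9% in WT. Besides their ends, the transcripts differ by 3 exonic bases at 1 acceptor, at 15422092 to 15422094 on chromosome 4.

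ATATH8 (AT2G39190), annotated as a protein kinase, changed over (usage adjusted p = 0.000503). Its transcript AT2G39190.1 took 87.5%, 70.4% and 70.1% in sr45a, against 2.90%, 2.03% and 5.08% in WT. In SR45a-1a-OE it took 68.7%, 70.4% and 72.2%, so both genotypes stood apart from WT. The sums were 81.6% of the gene count in sr45a and 101% in WT. Besides 146 more bases at its end, AT2G39190.2 holds 4 bases at each of 2 acceptors that AT2G39190.1 lacks. The coding length is 1125 bases in AT2G39190.1, against 2445 in AT2G39190.2.

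PPR596 (AT1G80270), a pentatricopeptide repeat protein, lost AT1G80270.1 (usage adjusted p = 0.000638). That transcript took 0% in all sr45a libraries, against 36.1%, 25.1% and 12.8% in WT. It was also at 0% in all SR45a-1a-OE libraries. The sums were 83.4% in sr45a and 81.5% in WT. Besides the ends, where AT1G80270.3 has 81 and 54 more bases, AT1G80270.1 holds 5 bases at an acceptor that AT1G80270.3 lacks. The mean share of AT1G80270.3 was 41.0% in sr45a and 28.5% in WT, and that of AT1G80270.5 23.0% in sr45a and 11.2% in WT. All annotated transcripts of the gene share a coding length of 1791 bases.

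The acceptors of these transcripts are given on TAIR10.1, read on the strand of the gene, with 30 bases on either side of the stretch that is exonic in 1 of the transcripts only; that stretch is in capitals. It belongs to the raised AT4G31880.1 in the first line and to the lowered transcripts AT2G39190.2 and AT1G80270.1 in the rest. The positions are chr4:15422062-15422124 (minus strand), chr2:16352596-16352659 and chr2:16354466-16354529 (plus strand) and chr1:30181197-30181261 (plus strand). In each case the dinucleotide ag stands before both the first and the second possible exon start.
AT4G31880: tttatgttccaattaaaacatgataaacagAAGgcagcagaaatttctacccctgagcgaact
ATATH8 first acceptor: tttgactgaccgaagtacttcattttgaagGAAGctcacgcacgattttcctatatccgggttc
ATATH8 second acceptor: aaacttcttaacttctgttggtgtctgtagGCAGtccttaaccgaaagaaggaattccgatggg
PPR596: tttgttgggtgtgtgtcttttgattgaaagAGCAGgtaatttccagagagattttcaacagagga

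CNGC9 (AT4G30560), a cyclic nucleotide-gated channel, gained AT4G30560.3 (usage adjusted p = 0.000503). Besides lacking 140 bases at an end, AT4G30560.3 keeps an intron of 148 bases of AT4G30560.1. It took 42.0%, 79.9% and 47.2% in sr45a, against 0%, 0.179% and 0% in WT, and 0% in all SR45a-1a-OE libraries. Its sums were 97.9% of the gene count in sr45a and 87.3% in WT. AT1G31050, a bHLH gene, lost AT1G31050.2, which keeps an intron of 111 bases: it took 0% in sr45a, against 41.1%, 44.6% and 19.2% in WT (usage adjusted p = 0.00542; sums of 91.7% in sr45a and 95.9% in WT). A small change was AT5G04550.2, with 252 more bases, at 6.12%, 4.41% and 7.82% in sr45a, against 0.167%, 0.162% and 0.0539% in WT (usage adjusted p = 0.0148; sums of 101% in both).

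**Figure D5:**
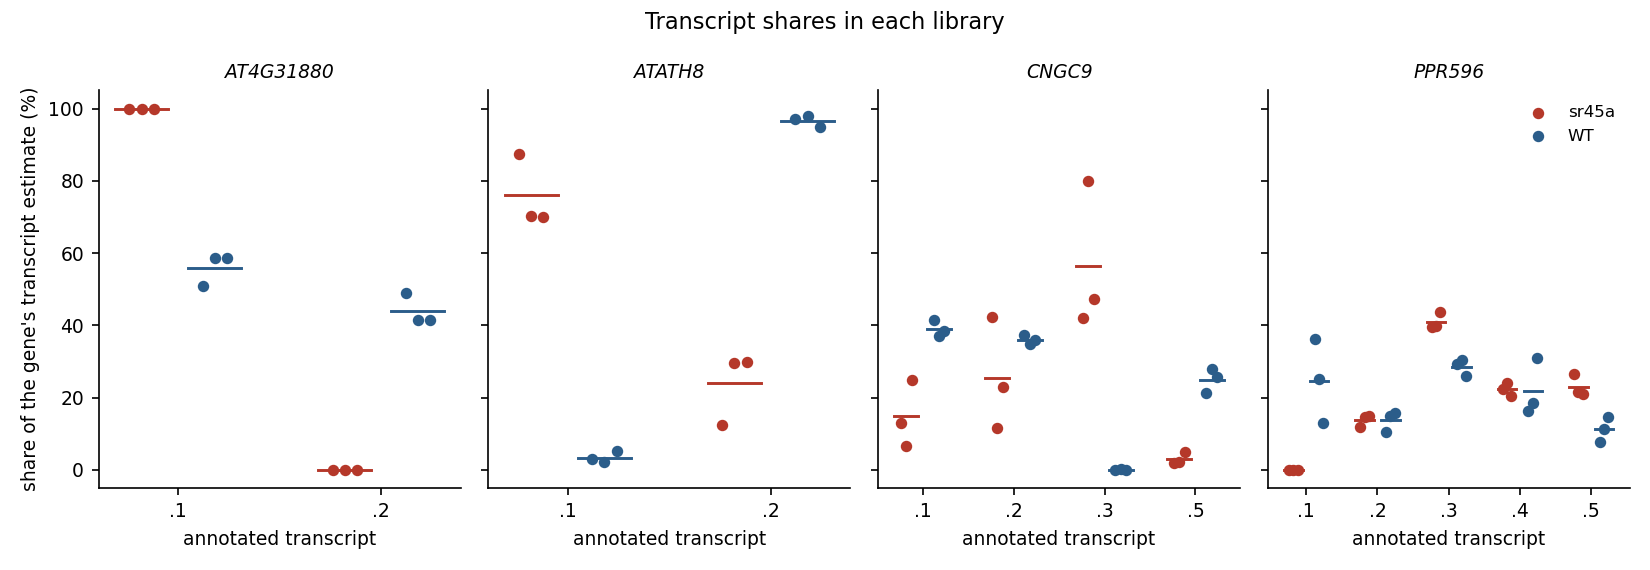
Share of each annotated transcript in the summed estimate of its gene (vertical axis, percent) in each library, for genes with changed usage; points are libraries and lines are group means, sr45a to the left of WT. The share of AT4G31880.2 is 0% in each sr45a library and 41.5% to 49.1% in WT, and that of AT2G39190.1 is 70.1% to 87.5% in sr45a and 2.03% to 5.08% in WT.

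Of the other genes with changed usage, some had complete sums and are not described, and those that follow had incomplete sums. AT5G51970.2, of a zinc-binding alcohol dehydrogenase-like gene, took 0% in sr45a, against 48.2%, 39.4% and 46.0% in WT, with sums of 76.6% in sr45a and 37.2% in WT. It was also at 0% in all SR45a-1a-OE libraries. AT3G11530.1, of a VPS55 family gene, took 25.2%, 11.6% and 40.4% in sr45a and 0% in WT, with sums of 34.5% in sr45a and 34.4% in WT. AT2G26970.2, of a gene annotated as ribonuclease H-like, took 0% in sr45a, against 74.0%, 35% and 51.9% in WT (sums of 70.9% in sr45a and 76.6% in WT), and 63.1%, 82.1% and 75.2% in SR45a-1a-OE. Where a sum is far from 100%, the shares describe only the annotated part of the gene.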

How the data were processed

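RNA of whole heated seedlings was sequenced on a NovaSeq as 150-bp read pairs, and reads shorter than 36 bp were removed with fastp, per the labels' protocols. Aligner, counter, genome build and use of strand: not given in the sources used here. The deposited tables for genes hold raw counts and FPKM (scaled by length and library size by the authors), and those for transcripts hold estimated counts and FPKM from the authors, per the file headers. Counts and rounded estimated counts were tested; FPKM are given as levels of transcripts and served as an alternative with limma. Gene coordinates were the same as in TAIR10.1 (RefSeq) for 26949 of 26968 matched genes of 27218; promoter and junction sequences are RefSeq's. Depth was 18036195 to 21864604 gene counts per library, and the chi-square per gene between replicates was 5.34 to 24.7, so counting error was small beside replicate spread except for scarce genes. Counting intervals and floors (95%, 3 counts) cover counting error only.

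The main fit was edgeR 4.0.16 in R 4.3.3: TMM scaling, filterByExpr by genotype (minimum count 10, total 15), quasi-likelihood tests over the 9 libraries together, and the contrast sr45a minus WT, two-sided, with Benjamini-Hochberg adjustment. SE came from the F statistic. Usage was tested with diffSpliceDGE and Simes p-values. Named were SR45a and genes from the 12 largest rises and falls with at least 5 CPM and the 8 most abundant called genes in each direction. Also named were called members of lists (at most 8), called genes within 1 Mb of SR45a and some leading transcripts and usage genes. Alternatives were DESeq2 1.42.0, its size factors, a filter of 1 CPM in 3 libraries, no filter, limma 3.58.1 on log2(FPKM + 1) and log2(FPKM + 0.1), the 6 libraries alone, the replicate number as a block and each library left out. The scripts were tested on simulated data. The comparison, lists and rule were chosen with earlier results of these data known, and 21 loci were added to lists after their values were seen. Python 3.11.15, pandas 2.3.3 and matplotlib 3.10.9 made tables and figures.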

Additional observations from a re-analysis of the deposited data

How the results depend on the processing

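The number of called genes depended on the fit: 326 in the fit reported, 704 with DESeq2, 532 with only the 6 libraries compared, 193 with the replicate number as a block and 106 to 215 with 1 library left out. It was 365 without sr45a replicate 3 and SR45a-1a-OE replicate 3, an alternative chosen after seeing the data. That fit called 5 phosphate signalling, 5 phosphate transport, 9 phosphate lipid and phosphatase, 8 seed storage, 6 oil body and late embryogenesis, 5 glutathione transferase, 7 iron and 4 sulfur genes. Filters, size factors and limma gave 287 to 396. Called transcripts numbered 20 in the fit reported, 2 with the replicate block and 14 to 28 with 1 library left out. Genes with changed usage numbered 23 in the fit reported, 47 with limma diffSplice, 53 with only the 6 libraries compared, 16 with the replicate block (14 of them among the 23) and 20 to 41 with 1 library left out (12 to 19 of them among the 23). Deviations from the group means of same-numbered sr45a and WT libraries correlated at 0.032, 0.131 and −0.132. With 3 libraries per group these values cannot tell whether the replicate numbers mark a batch. Like sr45a replicate 3, SR45a-1a-OE replicate 3 stood apart from its group on the first principal component, at 16.2, against 48.3 and 47.0. With 1 library left out, called members ranged over 3 to 4 for phosphate signalling, 3 to 4 for phosphate transport, 4 to 7 for phosphate lipids and phosphatases, 5 to 8 for seed storage, 3 to 5 for oil body and late embryogenesis, 1 to 4 for glutathione transferases, 2 to 7 for iron and 1 to 5 for sulfur. SR45a ranged from −7.04 to −6.14. No named gene that was called in the fit reported reversed its sign. Over all named genes and alternatives 2451 results were unchanged in call, 6 became called and 550 lost their call. A change of sign in a named gene that was not called counted as unchanged. The causes were not tested. Depth limits storage genes, which had 0 to 3 counts over the WT group in several cases. Groups of 3 could not be screened for single outlying values.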
